A study of Mus musculus with 12 samples.

Results

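The change described here is the one that 2 mouse melanoma cell lines carrying the name dOVA share when each is set against the line it is named after. The parental lines were MeVa2.1 and MeVa2.2, and the derived lines were named MeVa2.1.dOVA and MeVa2.2.dOVA. Each was untreated and profiled by RNA sequencing in 3 libraries, 12 in all. The labels call each a murine melanoma line from a subcutaneous tumour of the skin, and give the genotype of all 12 libraries as WT, the dOVA lines included. They do not spell out dOVA, and whether a line is a clone or the replicates are separate cultures is not given in the sources used here, so p-values measure only how these samples spread, and that spread may be technical. By the title of the series, MeVa2.1.dOVA is immune-refractory. Each dOVA library was paired with the parental library of the same origin and replicate number, which gave 6 pairs, 3 in the MeVa2.1 origin and 3 in the MeVa2.2 origin. Genes were members if their CPM (read counts per gene scaled to a common library size, with TMM factors) moved in the same direction in all 6 pairs. Of 13985 genes tested, 2651 (19.0%) were members: 1272 higher in every dOVA library than in its partner (9.10% of tested genes) and 1379 lower (9.86%). Each origin has 1 derived line, so a shared change is shared by 2 lines.

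Many of the members described here encode proteins of the matrix outside the cell. Tumour cells of mesenchymal character secrete collagens, laminins, nidogens and proteoglycans, and they also make the proteases, protease inhibitors and heparan sulfate-editing enzymes that remodel this matrix. Heparan sulfate chains and basement membranes hold growth factors near the cell surface, where integrins and receptor tyrosine kinases read them. In melanoma a mesenchymal, dedifferentiated state with high Axl and little pigment-cell expression is a well-known alternative to the pigmented state.

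The labelled cell type was checked against its markers. Axl, a receptor tyrosine kinase, was at 1216 to 1836 CPM in the 12 libraries, and Mitf, the master regulator of pigment cells, at 9.12 to 24.4. Sox10, a pigment-cell and neural crest factor, was at 0 to 1.10 CPM, and the melanosome gene Mlana at 0 to 2.61. Tyr, Tyrp1 and Dct, pigment enzymes, were at 0 to 2.38, 0 to 12.1 and 0 to 15.6 CPM, and the melanosome gene Pmel at 0.222 to 6.27. MeVa2.2 replicate 1 had the highest value of all 6 of these genes, and Tyrp1 and Dct passed 1 CPM in only 1 other library, MeVa2.2 replicate 3 (2.09 and 2.28). In the remaining libraries these defining markers of pigment cells were at or near 0, although all are labelled melanoma. Ptprc, the leukocyte marker CD45, did not pass 0.232 CPM. Gene counts per library ran from 16181816 to 35627069. Correlations of log2 CPM were 0.932 to 0.985 within a line and 0.856 to 0.979 between lines. Some libraries stood apart. MeVa2.2 replicate 2 correlated more with replicates 1 and 2 of the derived line (0.969, 0.964) than with the other MeVa2.2 libraries (0.956, 0.932), and MeVa2.1 replicate 3 more with replicates 1 and 3 of its derived line (0.973, 0.979) than with the other MeVa2.1 libraries (0.969 each). MeVa2.1.dOVA replicate 2 correlated at 0.956 and 0.958 with the other libraries of its line, which correlated at 0.983 with each other.

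The members that carry the finding most directly are 17 genes called in each origin alone, in the same direction (0.122% of tested genes). The 250 bases before RefSeq's start site were matched in RefSeq's promoter table (GRCm38.p6) for 12 of them. These stretches are shown for the 3 of the 12 genes that held GGAATG on either strand, and were chosen for it. All 3 genes were lower in every dOVA library. The stretches were cut back where an annotated exon overlapped them. A second Agbl2 window (chr2:90782988-90783237) held neither of the strings below and is not shown. Capitals mark matches to TGANTCA or GGAATG on either strand. TGANTCA was searched for as the AP-1 string with its middle base left free. A match to it, such as TGAATCA in Agbl2, is therefore a loose one. GGAATG is the string bound by TEAD factors (CATTCC on the other strand). Nid1 encodes a linker of basement membranes, Ptges a prostaglandin E2 synthase and Agbl2 a carboxypeptidase that trims tubulin tails.
Nid1 (chr13:13437352-13437550, plus strand, 199 bases): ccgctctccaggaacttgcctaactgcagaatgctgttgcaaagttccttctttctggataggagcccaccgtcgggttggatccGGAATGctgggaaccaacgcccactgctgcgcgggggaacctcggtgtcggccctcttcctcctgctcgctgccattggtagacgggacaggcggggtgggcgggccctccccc
Ptges (chr2:30903298-30903547, minus strand, 250 bases): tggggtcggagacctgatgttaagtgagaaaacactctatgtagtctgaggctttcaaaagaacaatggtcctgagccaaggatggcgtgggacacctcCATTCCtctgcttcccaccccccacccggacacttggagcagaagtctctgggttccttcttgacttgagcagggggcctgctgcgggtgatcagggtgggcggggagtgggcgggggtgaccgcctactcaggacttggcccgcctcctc
Agbl2 (chr2:90782477-90782726, plus strand, 250 bases): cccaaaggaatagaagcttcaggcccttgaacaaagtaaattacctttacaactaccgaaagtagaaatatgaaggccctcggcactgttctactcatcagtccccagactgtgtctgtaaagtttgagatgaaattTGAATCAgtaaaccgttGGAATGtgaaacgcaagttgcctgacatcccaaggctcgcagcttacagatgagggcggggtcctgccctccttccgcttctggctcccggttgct
Over the 12 genes, 3 had the TEAD string and 1 the AP-1 string in the full 250 bases. Among 233 genes called lower that had a window, 13.3% held the TEAD string and 7.73% the AP-1 string. The shares over 9966 tested genes were 12.5% and 5.71%. A match is a description of the letters in this window and not a site. The E-box string CANNTG, which any of many factors can bind, was in 66.5% of the called-lower windows against 60.7% of all. A TATAAA string was in 7.30% of called-lower windows, in 12.5% of the 48 called-higher genes with a window and in 7.93% of all.

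How large the shared change is was asked with edgeR's quasi-likelihood test on the mean of the 2 origins' log2 fold changes, dOVA minus parent. Of 13985 genes, 402 passed at an adjusted p of 0.05 (2.87%): 68 were higher (0.486%) and 334 lower (2.39%). Of the 68, 59 rose in all 6 pairs, and of the 334, 272 fell in all 6. Membership and this test read the same contrast, so the overlap is a description. The falls were larger than the rises: the median log2 fold change was -2.45 over the called lower genes and 0.93 over the called higher ones. The called lower genes also had lower levels, with a median of mean log2 CPM of 2.91 against 5.38 for the called higher ones. The part of this level gap in the sizes was not tested. Among all members, 561 of the 1379 lower genes (40.7%) and 79 of the 1272 higher genes (6.21%) changed at least 2-fold on average. The median was -0.80 for lower members and 0.42 for higher members, beside -0.02 over all tested genes. Leaving out 1 library at a time gave 124 to 800 called genes, and 102 genes, 8 higher and 94 lower, were called in each of those 12 fits. The lowest count came without MeVa2.2.dOVA replicate 2 and the highest without MeVa2.2 replicate 2, leaving out MeVa2.2 replicate 2 and MeVa2.1.dOVA replicate 2 together gave 448, and leaving out MeVa2.1 replicate 3 gave 420.0. For 87 of the 402 genes the fold change moved by more than 1.5 times when some library was left out. An additive model, with 1 dOVA term over both origins in place of 1 mean per line, gave 278 genes (55 higher, 223 lower).

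**Figure D1:**
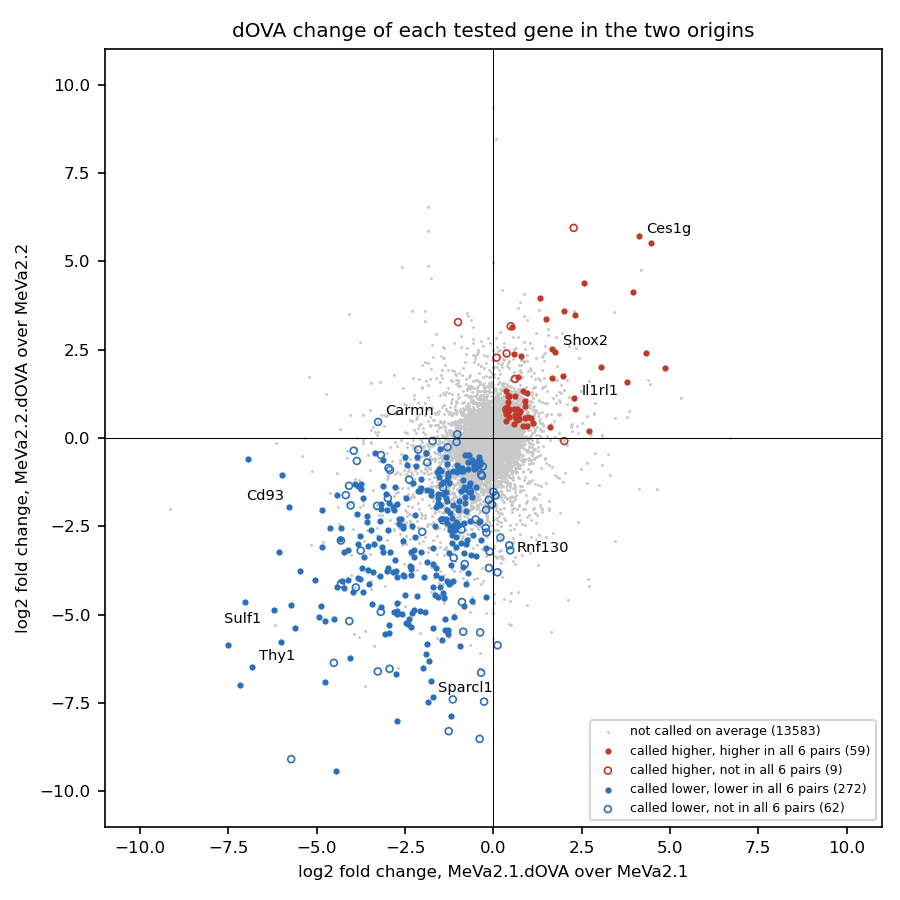
Log2 fold change of dOVA over parent for each of 13985 tested genes, MeVa2.1 origin on the x axis and MeVa2.2 origin on the y axis. Red and blue points are the 68 genes called higher and the 334 called lower on average, filled where all 6 pairs moved that way (59 and 272). Most blue points lie where both origins are negative, and they reach further from the centre than the red ones.

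The 2 origins share no library, so their changes can be set side by side. Of 3442 genes higher in all 3 MeVa2.1 pairs, 1272 (37.0%) were higher in all 3 MeVa2.2 pairs and 460 (13.4%) were lower in all 3. Of 3516 genes lower in all 3 MeVa2.1 pairs, 1379 (39.2%) were lower in all 3 MeVa2.2 pairs and 390 (11.1%) were higher. Over all tested genes the MeVa2.2 shares were 23.7% higher and 24.4% lower. Read from the other side, 38.4% of 3314 genes higher and 40.3% of 3419 genes lower in the MeVa2.2 pairs moved that way in all 3 MeVa2.1 pairs. Across genes, which are not independent replicates, the origins' log2 fold changes had a Pearson r of 0.438 and a Spearman rho of 0.368. The sign was the same for 63.6% of genes. By number of pairs, 1988 genes were higher in exactly 5 of 6 pairs and 1945 in exactly 1, the nearest to membership on either side.

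Called in each origin alone, in the same direction, were Nid1, Aldh1a2, Sulf1, Dcn, Hecw1, Serpine2, Ctsk, Cx3cl1, Slco2a1, Ptprf, Hpse, Agbl2, Npnt, Sned1, Ptges and Pcdhgb1, all lower, and Ces1f, higher. The origins alone had 68 (0.486%) and 278 (1.99%) called genes. For 147 genes (1.05%) all 3 dOVA libraries lay above all 3 parental libraries in each origin, and for 315 (2.25%) they lay below. The 17 genes were chosen by the same values, so their non-overlap is a description. This count of 17 depends on single libraries: it was 25 without MeVa2.2 replicate 2, 20 without MeVa2.1 replicate 3 and 0 to 9 without any of the other 10, while 610, 468 and 251 to 584 genes had an unadjusted p under 0.05 in each origin. It was 0 when any of 5 libraries was left out (replicates 1 and 2 of MeVa2.1, 2 and 3 of its dOVA line, 2 of MeVa2.2.dOVA), and 0 without MeVa2.2 replicate 2 and MeVa2.1.dOVA replicate 2 together. Pcdhgb1 overlaps other protocadherin gamma genes that share exons, and its value, -2.32, SE 0.26 on the log2 scale, is uncertain for that reason.

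Basement membrane genes, which build the thin sheet that laminin and collagen IV form around cells, were often lower in the dOVA lines. This list, like the pathway and cell-type lists below, was chosen with earlier results of these data known. Counts of called members in such lists are therefore a description. Of 15 tested, 7 were called lower, against 2.39% of all tested genes, 7 were lower in all 6 pairs, and all 15 had a negative average change (median log2 fold change -0.63, beside -0.02 over all). Nid1 (nidogen 1, the linker between laminin and collagen IV; chromosome 13, 13437551 to 13512269, plus strand, GRCm38) was at 630.2, 693 and 682 CPM in MeVa2.1 and 212, 229 and 147 in its dOVA line, and at 201, 181 and 231 in MeVa2.2 and 85.7, 85.3 and 45.7 in its dOVA line. The groups did not overlap in either origin, and replicate 3 was the lowest library of each dOVA line. On average Nid1 fell by 1.64 on the log2 scale (SE 0.18, adjusted p = 0.00236), -1.77 in the MeVa2.1 origin and -1.501 in the MeVa2.2 origin. Col4a6, a collagen IV chain, was at 33.9, 42.1 and 18.8 CPM in MeVa2.1 and 7.22, 3.37 and 3.64 in its dOVA line, and at 4.47, 2.32 and 7.45 in MeVa2.2 and 0.264, 0.0554 and 0.529 in its dOVA line. It too was lower in every dOVA library than in any parental library of its origin (-3.33, SE 0.43, adjusted p = 0.00328). Nid2, the second nidogen, was at 15.3, 15.6 and 13.3 CPM in MeVa2.1 and 7.34, 1.07 and 7.28 in its dOVA line, and at 6.79, 3.24 and 23.1 in MeVa2.2 and 1.16, 0.332 and 0.612 in its dOVA line. The lowest MeVa2.1.dOVA library was replicate 2, and the MeVa2.2 libraries themselves spread from 3.24 to 23.1 CPM (-2.73, SE 0.56, adjusted p = 0.0267). Lower as well were the laminin chains Lama4 (-1.53, SE 0.31, adjusted p = 0.0244) and Lamc1 (-0.58, SE 0.13, adjusted p = 0.0414), the collagen IV chain Col4a2 (-0.95, SE 0.19, adjusted p = 0.0244) and Sparc, a collagen-binding protein of the matrix (-1.14, SE 0.27, adjusted p = 0.0496). Sparc averaged 4255 ± 319 CPM in MeVa2.1 and 2813 ± 1031 in its dOVA line, and 3022 ± 1206 in MeVa2.2 and 945 ± 399 in its dOVA line (mean ± SD, n = 3). Lamc1 was lower in 5 of 6 pairs. Nid1 and Col4a6 were called whichever library was left out, while Col4a2, Lama4, Lamc1, Nid2 and Sparc lost the call for 9, 8, 9, 6 and 10 of the 12 libraries left out in turn (highest adjusted p 0.0749, 0.0771, 0.113, 0.0852 and 0.127). Col4a2, Lamc1 and Nid2 lost the call in the additive model (log2 fold change -0.95, -0.58 and -2.65; adjusted p = 0.0538, 0.0538 and 0.0662).

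Interstitial matrix followed in part. Of 16 collagen genes tested, 3 were called lower and 7 were lower in all 6 pairs (2.39% and 9.86% of all tested genes), with a median log2 fold change of -0.94 (-1.66 without MeVa2.2.dOVA replicate 3). Col6a3, a chain of the beaded-filament collagen VI, was at 487, 499.8 and 129.9 CPM in MeVa2.1 and 88.5, 16.4 and 34.6 in its dOVA line, and at 1044, 428 and 1168 in MeVa2.2 and 177, 90.4 and 377 in its dOVA line. Libraries did not overlap in either origin, although the parental level differed several-fold between replicates (-2.52, SE 0.52, adjusted p = 0.0262). Col5a3, a minor fibrillar chain, also fell in all 6 pairs (-3.27, SE 0.77, adjusted p = 0.0454). Col15a1, a collagen next to basement membranes, was called lower (-4.27, SE 0.96, adjusted p = 0.0382) but moved both ways in the MeVa2.1 origin, where it was at 47.5, 241 and 19.4 CPM in MeVa2.1 and 87.6, 11.8 and 39.2 in its dOVA line. In the MeVa2.2 origin it was at 9.698, 1.57 and 19.6 CPM in MeVa2.2 and 0.158, 0 and 0.0278 in its dOVA line, with no overlap, and the 2 origins were not called different (adjusted p = 0.318). Col1a1, the main fibrillar collagen, had a log2 fold change of -0.33, SE 0.44 (adjusted p = 0.702). Among 25 matrix glycoprotein and elastic fibre genes, 3 were called lower (median -0.55): Sparcl1, a relative of Sparc, Ltbp2, a latent TGF-beta binding protein family member (-2.91, SE 0.44, adjusted p = 0.00726), and Fbln2, a fibulin (-1.86, SE 0.43, adjusted p = 0.0414). Sparcl1 was at 193, 300.5 and 315 CPM in MeVa2.1 and 114, 48.4 and 75.2 in its dOVA line, and at 20.03, 6.32 and 51.8 in MeVa2.2 and 0.105, 0.277 and 0.2504 in its dOVA line. The groups did not overlap, and the log2 fold change was -1.77 in the MeVa2.1 origin and -6.88 in the MeVa2.2 origin, a difference that did not pass its own test (adjusted p = 0.0843). Collagen processing and crosslinking genes were lower in all 6 pairs for 10 of 15, against 9.86% of all (median -0.58), with 1 called, the lysyl oxidase-like enzyme Loxl2. It was at 6.66, 2.68 and 2.14 CPM in MeVa2.1 and 0.0612, 0 and 0 in its dOVA line, and at 2.96, 0.05400 and 6.92 in MeVa2.2 and 0.0527, 0 and 0.0835 in its dOVA line. In the MeVa2.1 origin, with 1 against 249 counts, the ratio of parent to dOVA was 232 (95% counting interval 41.3 to 9211), and in the MeVa2.2 origin replicate 2 of the parent was already as low as the dOVA libraries. Sparcl1, Ltbp2 and Loxl2 kept the call with any library left out. Col6a3, Col5a3, Col15a1 and Fbln2 lost it for 8, 9, 9 and 10 of the 12, with an adjusted p of up to 0.0802, 0.120, 0.113 and 0.120. Sparcl1, Col15a1 and Fbln2 lost the call in the additive model (log2 fold change -3.65, -3.02 and -1.805; adjusted p = 0.0567, 0.187 and 0.0568).

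Several of these genes also mark fibroblasts. Of 11 fibroblast markers tested, 4 were called lower, beside 2.39% of all tested genes: Thy1, Dcn, Fap and Pdgfra (median over the list -1.81). Thy1, a cell-surface glycoprotein anchored in the membrane by a lipid (chromosome 9, 44043384 to 44048579, plus strand, GRCm38), was at 5.08, 6.83 and 0.741 CPM in MeVa2.1 and 0.122, 0 and 0 in its dOVA line, and at 25.6, 5.18 and 29.8 in MeVa2.2 and 0.475, 0.111 and 0.111 in its dOVA line. No dOVA library passed 0.475 CPM and no parental library was below 0.741, so the groups did not overlap. The fitted change was -6.67, SE 0.85, adjusted p = 0.00309, and in the MeVa2.1 origin, with 2 against 245 counts, the ratio of parent to dOVA was 114 (95% counting interval 31.3 to 949). A fitted fold change of a gene with 3 counts or fewer in a line depends on the prior count and is no bound. Decorin (Dcn), a small leucine-rich proteoglycan that binds collagen fibrils, was low throughout, at 4.04, 4.37 and 2.06 CPM in MeVa2.1 and 0.673, 0.651 and 0.745 in its dOVA line, and at 2.09, 1.13 and 1.63 in MeVa2.2 and 0.264, 0.277 and 0.306 in its dOVA line. All dOVA libraries were at 0.745 CPM or less and all parental libraries at 1.13 or more (-2.403, SE 0.29, adjusted p = 0.00239), and it was the called member among 7 proteoglycans of this family tested. Fap, a fibroblast activation protease, was lower in 6 of 6 pairs (-3.44, SE 0.78, adjusted p = 0.0389), and Pdgfra, a PDGF receptor, likewise (-1.85, SE 0.405, adjusted p = 0.0357). Thy1 and Dcn were called with any library left out; Fap and Pdgfra lost the call for 8 and 7 of 12 libraries (adjusted p up to 0.109 and 0.0957). Fap, Pdgfra, Cd93 and S100b lost the call in the additive model (log2 fold change -3.23, -1.84, -3.75 and -2.66; adjusted p = 0.0724, 0.0611, 0.0645 and 0.0909). The summed level of all 11 fibroblast markers overlapped between groups: it ran from 2705 to 4167 CPM in MeVa2.1 and 2258 to 4679 in its dOVA line, from 2956 to 6392 in MeVa2.2 and 1587 to 5879.5 in its dOVA line, and no marker was at 0 in any line. In bulk RNA, fewer cells of a type and less RNA per cell cannot be told apart. The part of such cells in the matrix results was not tested. Among other cell-type markers, Cd93, listed as endothelial, fell (-3.88, SE 0.68, adjusted p = 0.0163). It lost the call without MeVa2.2.dOVA replicate 2 (adjusted p = 0.0530). Of 11 endothelial markers, 3 were tested and Cd93 was the 1 called. All 3 were negative on average, but 1 went opposite ways in the 2 origins. Their median was -0.17 in the MeVa2.1 origin and -1.09 in the MeVa2.2 origin. The summed level of all 11 endothelial markers was 120.3 to 383 CPM in MeVa2.1 and 79.1 to 119 in its dOVA line, and 356 to 802 in MeVa2.2 and 145.0 to 206 in its dOVA line. S100b, listed as a Schwann cell marker, was at 1.96, 0.9296 and 2.31 CPM in MeVa2.1 and 1.101, 0.178 and 0.229 in its dOVA line, and at 0.755, 0.108 and 0.418 in MeVa2.2 and 0, 0 and 0 in its dOVA line. It was called lower (adjusted p = 0.0397), but lost the call for most libraries left out in turn. The adjusted p reached 0.0959 without MeVa2.1 replicate 1. MeVa2.2.dOVA had 0 counts, at least 10.2-fold lower than its parent against a floor of 3 counts over the line. Without MeVa2.2 replicate 1 the S100b bound was 7.05-fold. Of 9 Schwann markers, 6 were tested, and S100b was the 1 called by edgeR. All 6 were negative on average (median -0.53), but 3 went opposite ways in the 2 origins. The summed level of all 9 overlapped between groups in each origin. The median sum was 15.3 CPM in MeVa2.1 and 9.77 in its dOVA line. In the MeVa2.2 origin it was 3.62 in MeVa2.2 and 3.93 in its dOVA line. The smooth muscle and pericyte markers summed to 793 to 1709.7 CPM in MeVa2.1 and 848 to 1265 in its dOVA line, which overlap, and to 456.5 to 789.6 in MeVa2.2 and 75.02 to 416.5 in its dOVA line, which do not. Of 8 such markers, 5 were tested, all 5 had a negative average change (median -1.19), 2 were lower in all 6 pairs and edgeR called none, with 3 lower at an unadjusted p under 0.05 and 3 called lower by DESeq2. That median was -0.64 without MeVa2.2.dOVA replicate 2. Of 7 melanocyte markers, 5 were tested and all 5 were negative on average (median -1.72; -0.16 in the MeVa2.1 origin and -3.38 in the MeVa2.2 origin), with none called by edgeR or DESeq2 and 2 lower at an unadjusted p under 0.05. The median was -0.804 without MeVa2.2 replicate 1, the library with the highest pigment genes, and -0.41 without MeVa2.1 replicate 1. The part of these cell types in the results was not tested either. For 9 to 11 of the 19 leukocyte markers a line had no counts at all, and the summed level of all 19 was 1.63 to 11.4 CPM.

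Enzymes that edit heparan sulfate were among the called genes. Of 18 genes of this list tested, 4 were called lower and 8 were lower in all 6 pairs, beside 2.39% and 9.86% of all tested genes (median -0.39). Hpse, heparanase, which cuts heparan sulfate chains (chromosome 5, 100679484 to 100719716, minus strand, GRCm38), was at 22.6, 31.7 and 25.9 CPM in MeVa2.1 and 3.06, 1.42 and 1.46 in its dOVA line, and at 7.201, 2.21 and 4.03 in MeVa2.2 and 1.05, 0.222 and 0.668 in its dOVA line. Every dOVA library was below every parental library of its origin, and the MeVa2.1.dOVA libraries overlapped the MeVa2.2 parent. The average change was -3.27, SE 0.39, adjusted p = 0.00239 on the log2 scale. Sulf1, which removes 6-O-sulfate groups from heparan sulfate outside the cell (chromosome 1, 12692277 to 12861192, plus strand), was at 8.57, 3.34 and 0.906 CPM in MeVa2.1 and 0.183, 0 and 0.0573 in its dOVA line, and at 47.8, 18.3 and 55.2 in MeVa2.2 and 2.16, 0.499 and 1.84 in its dOVA line. The MeVa2.2 parent held the most, and its dOVA line overlapped the range of the MeVa2.1 parent (-5.23, SE 0.68, adjusted p = 0.00330; -5.72 in the MeVa2.1 origin and -4.74 in the MeVa2.2 origin). Sulf2, the second such sulfatase, was at 313, 445 and 275 CPM in MeVa2.1 and 163, 202 and 149 in its dOVA line, and at 229.6, 212 and 235 in MeVa2.2 and 136, 115 and 134 in its dOVA line. It was lower in all dOVA libraries by a smaller step (-0.91, SE 0.14, adjusted p = 0.00812). The heparan sulfate carrier Sdc3, syndecan 3, fell as well (-1.68, SE 0.31, adjusted p = 0.0179), with no overlap in either origin. Hpse, Sulf1 and Sulf2 were called with any library left out. Sdc3 lost the call without MeVa2.1.dOVA replicate 2, MeVa2.1.dOVA replicate 3 or MeVa2.2.dOVA replicate 2 (adjusted p up to 0.0548).

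**Figure D2:**
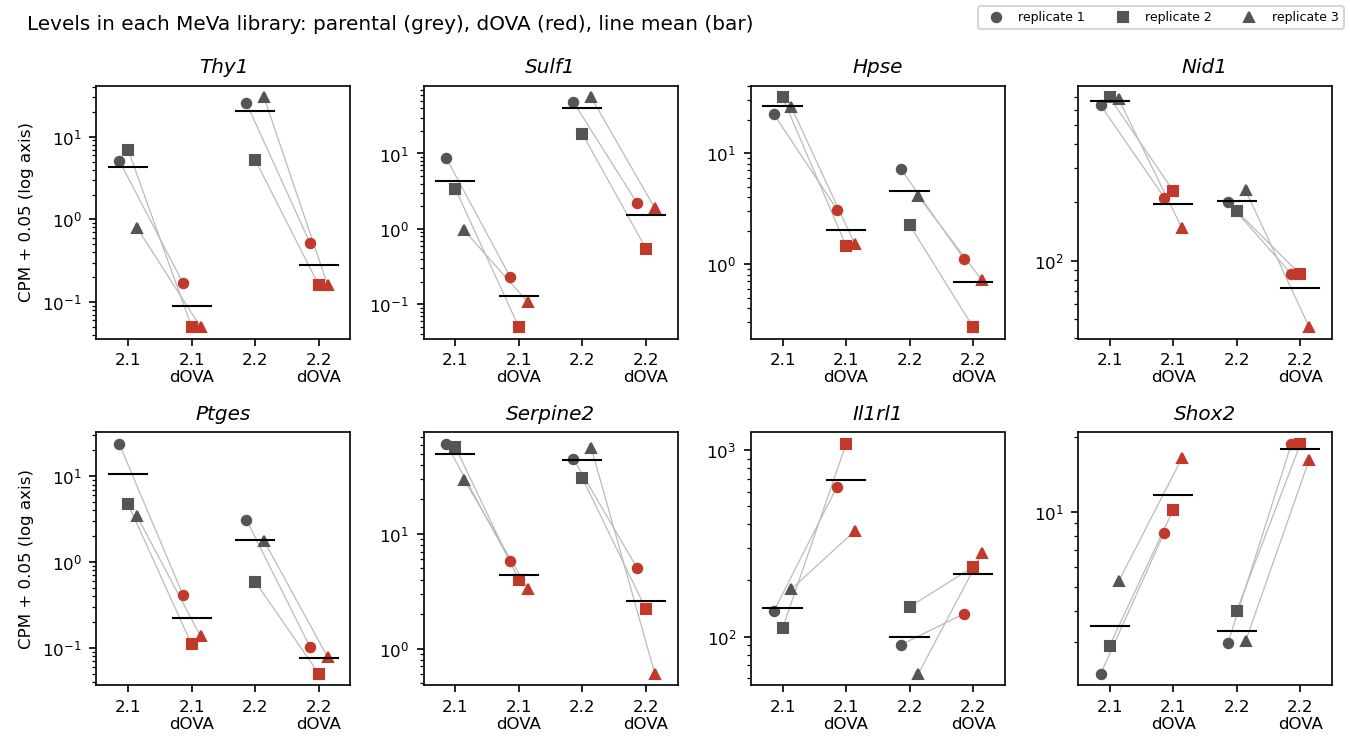
CPM plus 0.05 on a log axis for 8 genes in each of the 12 libraries, parental in grey and dOVA in red, with the line mean as a bar and a thin line joining each pair of the same replicate number. Thy1, Sulf1, Hpse, Nid1, Ptges and Serpine2 are lower and Shox2 higher in all dOVA libraries of either origin, while Il1rl1 overlaps in the MeVa2.2 origin.

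Proteases and protease inhibitors alike were among the genes that fell. Of 23 genes tested, 4 were called lower and 9 were lower in all 6 pairs, beside 2.39% and 9.86% of all tested genes (median -0.88). Serpine2, protease nexin 1, an inhibitor of thrombin and plasminogen activators (chromosome 1, 79794197 to 79861180, minus strand, GRCm38), was at 60.8, 57.2 and 29.7 CPM in MeVa2.1 and 5.75, 3.91 and 3.27 in its dOVA line, and at 44.9, 30.6 and 56.2 in MeVa2.2 and 5.01, 2.16 and 0.556 in its dOVA line. No dOVA library passed 5.75 CPM and no parental library was below 29.7 (-3.82, SE 0.45, adjusted p = 0.00239). Plau, the plasminogen activator urokinase that such inhibitors block, was at 137, 18.8 and 28.1 CPM in MeVa2.1 and 12.4, 1.95 and 5.22 in its dOVA line, and at 383, 33.97 and 306 in MeVa2.2 and 44.4, 18.4 and 39.3 in its dOVA line. Replicate 2 was the lowest in each parental line, and in the MeVa2.2 origin that library lay among the dOVA libraries (-3.03, SE 0.69, adjusted p = 0.0397). Serping1, the C1 esterase inhibitor (-3.79, SE 0.69, adjusted p = 0.0179), and Adamts2, the procollagen N-propeptidase (-2.400, SE 0.49, adjusted p = 0.0259), fell in all 6 pairs too. Of 10 cathepsin genes tested, 3 were called lower (median -0.53). Ctsk, the collagen-degrading cathepsin K (chromosome 3, 95499256 to 95509362, plus strand), was at 56.7, 49.2 and 24.5 CPM in MeVa2.1 and 7.22, 3.85 and 3.24 in its dOVA line, and at 79.6, 115 and 48.4 in MeVa2.2 and 22.2, 25.5 and 13.1 in its dOVA line. The groups did not overlap in either origin (-2.599, SE 0.32, adjusted p = 0.00239; -3.196 in the MeVa2.1 origin and -2.002 in the MeVa2.2 origin). Ctsf fell by a similar amount in the 2 origins (-1.25, SE 0.28, adjusted p = 0.0358; -1.25 in the MeVa2.1 origin and -1.26 in the MeVa2.2 origin). Ctsc was called lower on average (-1.83, SE 0.33, adjusted p = 0.0168), but the MeVa2.2 origin had 25.8, 19.4 and 19.5 CPM in MeVa2.2 and 16.98, 19.8 and 9.65 in its dOVA line, which overlap. Serpine2 and Ctsk held with any library left out. Serping1 lost the call without MeVa2.1.dOVA replicate 3 (adjusted p = 0.0557), and Plau, Adamts2, Ctsc and Ctsf lost it for 8, 7, 1 and 8 of 12 libraries (up to 0.115, 0.0784, 0.0523 and 0.0957). Ctsc lost the call in the additive model (log2 fold change -1.81; adjusted p = 0.108).

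Receptors for this matrix and for growth factors also had called members. Integrin and adhesion genes had 3 of 27 called lower and 9 lower in all 6 pairs, beside 2.39% and 9.86% of all tested genes (median -0.98). Itga6, the alpha subunit of a laminin receptor, was at 268, 352 and 189 CPM in MeVa2.1 and 164, 127 and 135 in its dOVA line, and at 355, 199.8 and 312 in MeVa2.2 and 117, 98.7 and 88.4 in its dOVA line. Every dOVA library lay below the parental libraries of its origin (-1.22, SE 0.18, adjusted p = 0.00779). Itgb3, the beta subunit of the vitronectin receptor, was at 66.2, 42.7 and 33.7 CPM in MeVa2.1 and 16.7, 2.13 and 14.8 in its dOVA line, and at 8.54, 0.8101 and 8.36 in MeVa2.2 and 0.316, 0.111 and 0.167 in its dOVA line. Replicate 2 was the lowest library of both dOVA lines and of MeVa2.2, and the groups did not overlap (-3.48, SE 0.64, adjusted p = 0.0179). Itga2, the alpha subunit of a collagen receptor, was called (-2.72, SE 0.62, adjusted p = 0.0392) and was lower in 5 of 6 pairs. Npnt, nephronectin, a matrix ligand of an integrin, was at 27.2, 22.3 and 6.45 CPM in MeVa2.1 and 3.49, 1.72 and 1.92 in its dOVA line, and at 58.01, 29.00 and 49.1 in MeVa2.2 and 7.07, 6.65 and 8.74 in its dOVA line. It was lower in every dOVA library (-2.79, SE 0.35, adjusted p = 0.00294), and so was Sned1, a matrix glycoprotein (-2.78, SE 0.29, adjusted p = 0.00201). Among growth factor receptors, 4 of 20 were called lower (median -0.36): Egfr, the EGF receptor (-2.75, SE 0.55, adjusted p = 0.0235), Ephb2, an ephrin receptor (-2.61, SE 0.52, adjusted p = 0.0242), Mertk, a relative of Axl (-0.64, SE 0.14, adjusted p = 0.0380), and Pdgfra. Mertk fell by nearly the same step in the 2 origins, -0.601 in the MeVa2.1 origin and -0.67 in the MeVa2.2 origin. Itga6, Npnt and Sned1 were called in each fit that left out a library. Itgb3 lost the call without MeVa2.2.dOVA replicate 2 (adjusted p = 0.0600), and Itga2, Egfr, Ephb2 and Mertk lost it for 10, 5, 5 and 9 libraries (up to 0.111, 0.0605, 0.0706 and 0.107). Itga2 and Egfr lost the call in the additive model (log2 fold change -2.68 and -2.53; adjusted p = 0.0932 and 0.0557).

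Prostaglandin, retinoic acid and vasoactive peptide genes were grouped after their values had been seen, so their counts describe the choice and support nothing. In the prostaglandin group 3 of 11 were called lower. The share over all tested genes was 2.39%, to be set beside this count and those of the other groups here. Ptges, which makes prostaglandin E2 (chromosome 2, 30889471 to 30929863, minus strand, GRCm38), was at 23.7, 4.65 and 3.38 CPM in MeVa2.1 and 0.367, 0.0592 and 0.08598 in its dOVA line, and at 3.08, 0.5400 and 1.71 in MeVa2.2 and 0.0527, 0 and 0.0278 in its dOVA line. Levels fell by similar factors from a high and a low start, and neither origin overlapped (-5.89, SE 0.795, adjusted p = 0.00399). In the MeVa2.2 origin, with 2 against 108 counts, the ratio of parent to dOVA was 63.5 (95% counting interval 17.2 to 531). Slco2a1, which carries prostaglandins into cells, was at 7.31, 8.37 and 4.09 CPM in MeVa2.1 and 0.612, 0.355 and 0.659 in its dOVA line, and at 2.497, 0.918 and 2.13 in MeVa2.2 and 0.211, 0.443 and 0.389 in its dOVA line. It too was lower in all dOVA libraries (-2.98, SE 0.35, adjusted p = 0.00239), and Ptgfr, the prostaglandin F receptor, fell in 6 of 6 pairs with overlap in the MeVa2.1 origin (-2.08, SE 0.400, adjusted p = 0.0210). Aldh1a2, which makes retinoic acid from retinaldehyde, was low even in the parents, at 1.04, 1.09 and 1.67 CPM in MeVa2.1 and 0.122, 0.0592 and 0.0573 in its dOVA line, and at 0.639, 0.594 and 0.7600 in MeVa2.2 and 0.0527, 0 and 0.0278 in its dOVA line. Every dOVA library was below every parental library (-4.17, SE 0.42, adjusted p = 0.00195). The ratio in the MeVa2.2 origin, from 2 against 42 counts, was 24.7 (95% counting interval 6.42 to 211). With it fell Aldh1a3, a second such enzyme (-2.82, SE 0.65, adjusted p = 0.0420), Dhrs3, which reduces retinaldehyde (-2.98, SE 0.46, adjusted p = 0.00816), and Rxrg, a retinoid X receptor (-4.62, SE 0.76, adjusted p = 0.0116), so 4 of 15 were called. Endothelin receptors A and B fell: Ednra was at 17.7, 18.3 and 13.7 CPM in MeVa2.1 and 4.28, 0.888 and 4.56 in its dOVA line, and at 3.25, 1.08 and 3.496 in MeVa2.2 and 0.369, 0.0554 and 0.111 in its dOVA line, and Ednrb at 0.655, 0.273 and 0.467 CPM in MeVa2.1 and 0.183, 0 and 0.172 in its dOVA line, and at 2.73, 4.37 and 2.81 in MeVa2.2 and 0, 0 and 0.0278 in its dOVA line. Ednra was higher in the MeVa2.1 parent and Ednrb in the MeVa2.2 parent, and for each receptor the dOVA libraries did not overlap their parents (Ednra -3.12, SE 0.49, adjusted p = 0.00918; Ednrb -4.66, SE 0.58, adjusted p = 0.00265). The Ednrb ratio in the MeVa2.2 origin, from 1 against 202 counts, was 237 (95% counting interval 42.1 to 9426). Angiotensin-converting enzyme Ace (-3.73, SE 0.62, adjusted p = 0.0122), the angiotensin receptor Agtr2 (-3.98, SE 0.903, adjusted p = 0.0392), the receptor partner Ramp3 (-3.65, SE 0.697, adjusted p = 0.0202) and Tac1, the substance P precursor, completed 6 called of 11. Tac1 ran from 120.5 CPM in MeVa2.1 replicate 1 to 0.270 in MeVa2.2 replicate 2 among the parents, and no dOVA library passed 2.39 (-5.49, SE 1.21, adjusted p = 0.0365). The counting ratios of parent to dOVA were 42.3 (95% counting interval 14.2 to 208) for Rxrg in the MeVa2.1 origin, and 35.7 (95% counting interval 11.8 to 176) for Agtr2 and 47.03 (95% counting interval 12.6 to 395) for Tac1 in the MeVa2.2 origin, where the dOVA line had 3 counts or fewer. Ptges, Slco2a1, Aldh1a2, Dhrs3, Rxrg, Ednra, Ednrb and Ace were called with any library left out. Ptgfr, Aldh1a3, Agtr2, Ramp3 and Tac1 lost the call for 6, 9, 9, 4 and 9 libraries (adjusted p up to 0.0648, 0.120, 0.124, 0.0661 and 0.108).

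Secreted signals were represented by Cx3cl1, fractalkine, a chemokine that stays tethered to the membrane until it is cut (chromosome 8, 94772009 to 94782427, plus strand, GRCm38). It was at 10.8, 9.24 and 8.78 CPM in MeVa2.1 and 1.59, 1.18 and 2.09 in its dOVA line, and at 20.6, 7.99 and 31.2 in MeVa2.2 and 4.69, 2.38 and 3.23 in its dOVA line. Neither origin overlapped, and the change was nearly the same in the 2 origins (-2.54, SE 0.32, adjusted p = 0.00309; -2.55 in the MeVa2.1 origin and -2.53 in the MeVa2.2 origin). Cxcl12, the ligand of CXCR4, was called lower (-1.78, SE 0.39, adjusted p = 0.0372) and fell in 5 of 6 pairs, and these were the 2 called of 16 chemokine and cytokine genes (median -0.08). Over all tested genes 2.39% were called lower, the share to set beside this count and those of the lists that follow. Of 13 immune checkpoint ligands and related genes, 3 were lower: Cd200, an inhibitory ligand (-3.86, SE 0.91, adjusted p = 0.0450), and the ectoenzymes of adenosine production Entpd1 (CD39; -3.61, SE 0.801, adjusted p = 0.0373) and Nt5e (CD73; -3.47, SE 0.82, adjusted p = 0.0454). Cd274, which encodes PD-L1, was at 5.02, 7.600 and 2.28 CPM in MeVa2.1 and 3.06, 5.92 and 3.296 in its dOVA line, and at 7.08, 6.697 and 1.41 in MeVa2.2 and 10.8, 8.92 and 7.79 in its dOVA line (0.29, SE 0.401, adjusted p = 0.711). Secreted Wnt regulators and Wnt targets had 3 of 13 called lower (median -1.61): the secreted inhibitors Frzb (-3.59, SE 0.62, adjusted p = 0.0143) and Sfrp1 and the ligand Wnt5b (-3.56, SE 0.77, adjusted p = 0.0321). Sfrp1 overlapped in the MeVa2.1 origin, at 10.5, 4.702 and 17.2 CPM in MeVa2.1 and 9.296, 5.03 and 10.5 in its dOVA line, and was at 1.45, 0.702 and 3.72 CPM in MeVa2.2 and 0, 0 and 0 in its dOVA line, at least 53.3-fold lower against a floor of 3 counts over the line, and at least 25.9-fold without MeVa2.2 replicate 3. Axon guidance genes had 4 of 22 called lower (median -0.58), namely the netrin receptor Unc5b (-1.25, SE 0.19, adjusted p = 0.00713) and the semaphorins Sema3a (-0.799, SE 0.16, adjusted p = 0.0244), Sema3b (-1.62, SE 0.27, adjusted p = 0.0127) and Sema6a (-2.24, SE 0.51, adjusted p = 0.0392). In MeVa2.2.dOVA, Cd200, Entpd1 and Wnt5b had 3 counts or fewer, with ratios of parent to dOVA of 51.1 (95% counting interval 13.7 to 429), 15.9 (95% counting interval 3.99 to 138) and 17.2 (95% counting interval 5.53 to 86.8). Cx3cl1, Unc5b and Sema3b kept the call with any library left out, and Frzb lost it without MeVa2.2.dOVA replicate 2 (adjusted p = 0.0516). Cxcl12, Cd200, Entpd1, Nt5e, Sfrp1, Wnt5b, Sema3a and Sema6a lost it for 9, 11, 9, 10, 2, 8, 5 and 8 libraries, with an adjusted p of at most 0.134. Sema3b, Sfrp1, Cxcl12, Cd200 and Sema6a lost the call in the additive model (log2 fold change -1.58, -2.16, -1.76, -3.36 and -2.22; adjusted p = 0.111, 0.240, 0.0538, 0.0730 and 0.0648).

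The largest falls reached beyond the matrix. Slc14a1, a urea transporter, was at 258, 135 and 46.6 CPM in MeVa2.1 and 10.6, 1.95 and 2.46 in its dOVA line, and at 24.97, 7.61 and 13.9 in MeVa2.2 and 1.42, 0.332 and 0.0835 in its dOVA line. The groups were separate, and each origin dropped by nearly the same factor (-4.83, SE 0.71, adjusted p = 0.00658; -4.89 in the MeVa2.1 origin and -4.77 in the MeVa2.2 origin). Stc1, the secreted glycoprotein stanniocalcin 1, was at 212, 103 and 19.98 CPM in MeVa2.1 and 8.99, 0.296 and 1.003 in its dOVA line, and at 20.7, 6.805 and 21.4 in MeVa2.2 and 1.85, 0.609 and 0.6398 in its dOVA line. The libraries did not overlap, and the MeVa2.1 libraries themselves were widely spread (-4.53, SE 0.82, adjusted p = 0.0178). Atp8b1, a lipid flippase, went from 0.594 to 8.59 CPM in the parental libraries to 0.367 or less in the dOVA libraries (-5.01, SE 0.77, adjusted p = 0.00816). The RNA-binding protein genes Bicc1 and Rbpms had no counts in MeVa2.2.dOVA: they were at least 36.8-fold and at least 29.4-fold lower than in MeVa2.2 against a floor of 3 counts over the line. In the MeVa2.1 origin Bicc1 was at 5.403, 4.65 and 12.9 CPM in MeVa2.1 and 1.16, 0.829 and 1.46 in its dOVA line, and Rbpms at 18.7, 11.4 and 12.8 CPM in MeVa2.1 and 6.91, 4.68 and 7.02 in its dOVA line. Both were separate in each origin (adjusted p = 0.00884 and 0.00239). Without MeVa2.2 replicate 3 the Bicc1 bound was 19.7-fold. Fam84a was at 10.97, 1.53 and 0.494 CPM in MeVa2.1 and 0.489, 0 and 0.115 in its dOVA line, and at 1.39, 0.5400 and 9.16 in MeVa2.2 and 0, 0 and 0 in its dOVA line. Replicate 1 of MeVa2.1 and replicate 3 of MeVa2.2 held most of the parental counts, and the MeVa2.1 groups were separate by a narrow margin (adjusted p = 0.0376). The MeVa2.2 origin was at least 108-fold lower against the floor, and at least 23.1-fold without MeVa2.2 replicate 3. Tox2, a nuclear HMG-box protein, was at 12.9, 13.8 and 5.600 CPM in MeVa2.1 and 4.04, 3.79 and 2.09 in its dOVA line, and at 16.6, 34.7 and 1.03 in MeVa2.2 and 0.264, 0.0554 and 0.0278 in its dOVA line. The groups did not overlap in either origin (-4.52, SE 0.76, adjusted p = 0.0128; -1.71 in the MeVa2.1 origin and -7.33 in the MeVa2.2 origin; difference between origins adjusted p = 0.217). Rem1, a small GTPase of the RGK family (-5.13, SE 0.74, adjusted p = 0.00654), the membrane protein gene Plxdc2 (-4.304, SE 0.65, adjusted p = 0.00779) and Syt13, a synaptotagmin (-4.65, SE 0.92, adjusted p = 0.0235), complete the 15. Rem1 and Plxdc2 had 1 and 2 counts in MeVa2.2.dOVA, with ratios of parent to dOVA of 103 (95% counting interval 18.1 to 4132) and 57.02 (95% counting interval 15.4 to 478). Slc14a1, Atp8b1, Bicc1, Rbpms, Tox2, Rem1 and Plxdc2 were called with any library left out. Stc1 lost the call without MeVa2.1.dOVA replicate 3 or MeVa2.2.dOVA replicate 2 (adjusted p up to 0.0596), and Fam84a and Syt13 for 9 and 7 libraries (up to 0.0986 and 0.0694). Rbpms and Tox2 lost the call in the additive model (log2 fold change -2.44 and -3.89; adjusted p = 0.0929 and 0.104).

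Of the genes called in each origin, 3 remain to be given. Ptprf, the receptor tyrosine phosphatase LAR, was at 9.44, 2.73 and 1.62 CPM in MeVa2.1 and 0.306, 0.118 and 0.172 in its dOVA line, and at 2.79, 1.03 and 1.14 in MeVa2.2 and 0.105, 0 and 0.0278 in its dOVA line. Its highest dOVA library, at 0.306 CPM, was below its lowest parental library, at 1.03 (-4.82, SE 0.64, adjusted p = 0.00359). From 3 against 97 counts in the MeVa2.2 origin, the ratio of parent to dOVA was 38.01 (95% counting interval 12.6 to 188). Hecw1, a ubiquitin ligase, was at 15.3, 18.5 and 4.86 CPM in MeVa2.1 and 2.57, 1.84 and 1.06 in its dOVA line, and at 4.24, 4.97 and 2.62 in MeVa2.2 and 0.422, 0.166 and 0.2504 in its dOVA line. It was separate in each origin and fell by more than 2 on the log2 scale in both (-3.32, SE 0.404, adjusted p = 0.00239; -2.83 in the MeVa2.1 origin and -3.799 in the MeVa2.2 origin). Agbl2, whose promoter stretch above held matches to TGANTCA and GGAATG, was at 10.04, 7.82 and 6.37 CPM in MeVa2.1 and 0.979, 0.237 and 0.659 in its dOVA line, and at 0.987, 0.432 and 0.532 in MeVa2.2 and 0.0527, 0.111 and 0.0278 in its dOVA line. The MeVa2.1 parent held more than the MeVa2.2 parent, and the dOVA lines kept that order (-3.53, SE 0.43, adjusted p = 0.00239). These 3 genes kept the call on the average of both origins with any library left out. Their call in each origin alone did not hold throughout, since the count of such genes was 0 without some libraries.

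**Figure D3:**
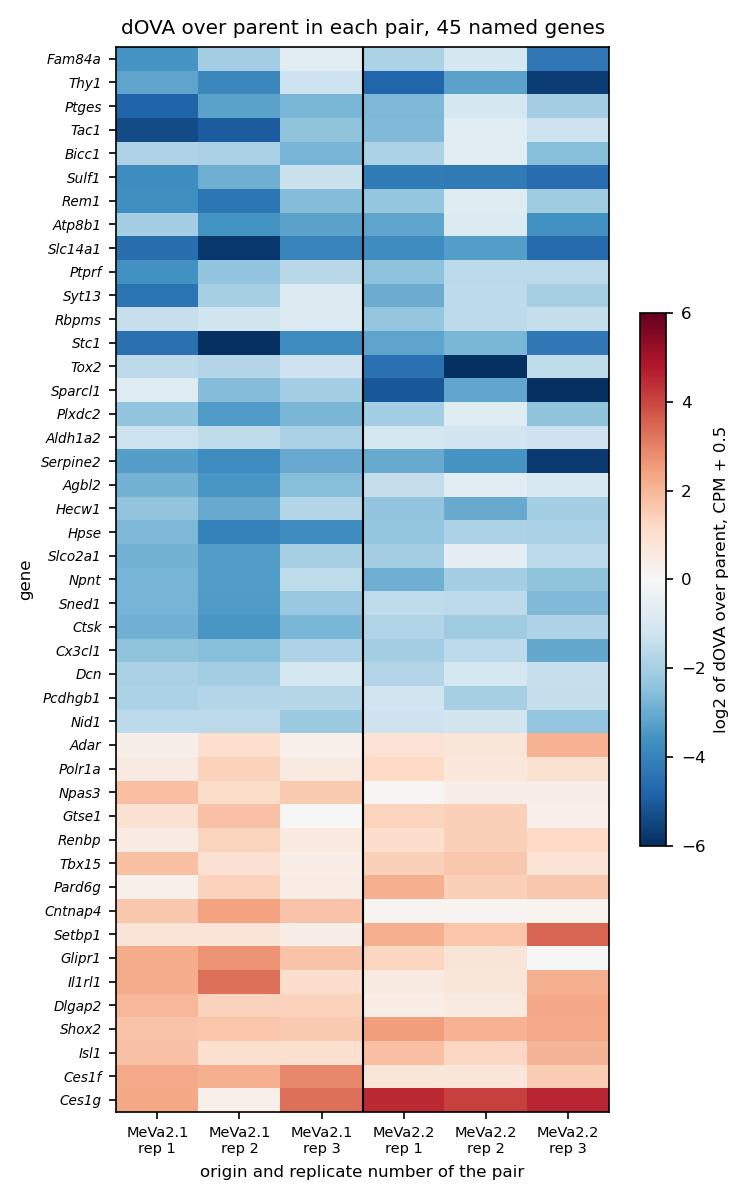
Log2 of dOVA over parent, on CPM plus 0.5, in each of the 6 pairs (columns, by origin and replicate number) for the 45 genes named by rule (rows, ordered by average fold change). Blue is lower and red higher in the dOVA library; rows are blue or red throughout because only genes that moved the same way in all 6 pairs qualify, and the depth of colour differs between pairs.

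The genes that rose were fewer and changed less, and 2 transcription factors of mesenchymal patterning, Shox2 and Tbx15, were among them. Shox2, a homeobox factor of limb and heart development (chromosome 3, 66971727 to 66981771, minus strand, GRCm38), was at 2.18, 2.84 and 5.19 CPM in MeVa2.1 and 8.195, 10.1 and 16.4 in its dOVA line, and at 2.904, 3.94 and 2.96 in MeVa2.2 and 18.7, 18.6 and 16.1 in its dOVA line. Every dOVA library was above every parental library of either origin (2.099, SE 0.26, adjusted p = 0.00239). Tbx15, a T-box factor of skeletal and skin development, was at 4.203, 6.45 and 11.7 CPM in MeVa2.1 and 15.96, 12.4 and 15.4 in its dOVA line, and at 5.34, 5.51 and 10.6 in MeVa2.2 and 15.2, 17.8 and 18.9 in its dOVA line. The groups were separate by a small margin in each origin (1.11, SE 0.27, adjusted p = 0.0478). Both belong to a list of 21 tested mesenchymal patterning factors, of which 2 were called higher, against 0.486% of all tested genes. Foxf1, a forkhead factor, was the 1 called lower (-1.28, SE 0.26, adjusted p = 0.0246), and the list's median was -0.26. Most of the list went down: 16 of the 21 had a negative average change and 5 a positive one. In all 6 pairs 5 were lower and 3 higher, and DESeq2 called 5 lower and 2 higher. Isl1, a LIM-homeobox factor outside that list, was at 0.546, 1.26 and 3.404 CPM in MeVa2.1 and 3.06, 2.901 and 7.14 in its dOVA line, and at 0.0581, 0.216 and 0 in MeVa2.2 and 1.42, 1.22 and 1.56 in its dOVA line. MeVa2.1 replicate 3 lay among its dOVA line, while MeVa2.2 was near 0 and its dOVA line was not (2.64, SE 0.59, adjusted p = 0.0380). Npas3, a neural transcription factor, rose in 6 of 6 pairs (0.96, SE 0.17, adjusted p = 0.0166), by 1.59 in the MeVa2.1 origin and 0.33 in the MeVa2.2 origin. Shox2 was called with any library left out. Npas3 lost the call without MeVa2.2.dOVA replicate 2 (adjusted p = 0.0530), and Tbx15, Isl1 and Foxf1 lost it for 10, 9 and 6 libraries (up to 0.121, 0.103 and 0.0797). Npas3, Isl1 and Foxf1 lost the call in the additive model (log2 fold change 0.95, 2.27 and -1.28; adjusted p = 0.0694, 0.0987 and 0.0538).

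Carboxylesterases, enzymes that cleave esters of lipids and drugs and are best known from liver, were grouped after their values had been seen. Ces1f, the 1 gene called higher in each origin alone (chromosome 8, 93256236 to 93279747, minus strand, GRCm38), was at 0.164, 0.328 and 0.192 CPM in MeVa2.1 and 2.75, 3.26 and 4.56 in its dOVA line, and at 0, 0 and 0.07600 in MeVa2.2 and 0.316, 0.332 and 1.17 in its dOVA line. It was nearly absent from the parents and detected in every dOVA library (4.03, SE 0.56, adjusted p = 0.00460). In the MeVa2.2 origin, with 2 against 54 counts, the ratio of dOVA to parent was 22.97 (95% counting interval 6.06 to 194). Ces1g, in the same cluster on chromosome 8 (93302369 to 93337308), was at 0, 0 and 0.549 CPM in MeVa2.1 and 1.96, 0.118 and 9.74 in its dOVA line, and at 0.232, 0.2700 and 0.418 in MeVa2.2 and 15.98, 12.6 and 21.4 in its dOVA line. The MeVa2.2.dOVA libraries held the most, and MeVa2.1.dOVA replicate 2 lay within the range of its parent (4.92, SE 0.91, adjusted p = 0.0182). Ces2g rose too (2.54, SE 0.58, adjusted p = 0.0392), and Ces1a, the other tested member, did not pass (0.199, SE 0.58, adjusted p = 0.875). Near-identical copies lie side by side in this cluster, and reads that map equally well to several copies may be missing from these counts, so the share of each gene is uncertain. Ces1f kept the call on the average of both origins with any library left out. Ces1g lost the call without MeVa2.1 replicate 1 or MeVa2.2 replicate 1 (adjusted p up to 0.0593), and its log2 fold change ran from 3.94 without MeVa2.1.dOVA replicate 3 to 7.595 without MeVa2.1 replicate 3. Ces2g lost it for 8 libraries (up to 0.113).

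Among surface and secreted proteins, Il1rl1, the receptor of interleukin 33, was at 136, 110.4 and 179.6 CPM in MeVa2.1 and 638, 1079.8 and 369 in its dOVA line, and at 90.1, 144 and 63.2 in MeVa2.2 and 133, 236 and 279 in its dOVA line. MeVa2.1.dOVA was above its parent in all libraries, and in the MeVa2.2 origin the dOVA library of replicate 1 lay below the parental library of replicate 2 (1.71, SE 0.301, adjusted p = 0.0163). Glipr1, a secreted-type protein of the CAP family, was at 14.8, 9.897 and 9.31 CPM in MeVa2.1 and 70.4, 66.1 and 31.98 in its dOVA line, and at 157, 199 and 129.8 in MeVa2.2 and 389.8, 345 and 130.0 in its dOVA line. In the MeVa2.2 origin the third pair was level and the other two were higher in dOVA (1.57, SE 0.29, adjusted p = 0.0179). Renbp, an enzyme of amino sugar metabolism on the X chromosome, was at 14.8, 11.1 and 10.6 CPM in MeVa2.1 and 20.7, 28.5 and 16.1 in its dOVA line, and at 4.41, 3.13 and 2.89 in MeVa2.2 and 9.81, 9.25 and 7.21 in its dOVA line. It was separate in each origin, with every MeVa2.2 and MeVa2.2.dOVA library below every MeVa2.1 library (1.09, SE 0.198, adjusted p = 0.0178). Dlgap2, a synaptic scaffold gene, rose with no overlap in either origin (1.87, SE 0.38, adjusted p = 0.0244). Setbp1 (1.49, SE 0.299, adjusted p = 0.0242) and the cell-polarity gene Pard6g (1.22, SE 0.26, adjusted p = 0.0293) overlapped in the MeVa2.1 origin, and Cntnap4, a neurexin-family adhesion gene, in the MeVa2.2 origin (1.44, SE 0.32, adjusted p = 0.0370). Cntnap4 rose by 2.69 in the MeVa2.1 origin and 0.19 in the MeVa2.2 origin, and Setbp1 by 0.60 and 2.39. Neither difference between origins passed its own test (adjusted p = 0.194 and 0.374). Gtse1, a microtubule-binding protein of dividing cells, was separate in both (0.98, SE 0.22, adjusted p = 0.0392). Adar, which edits adenosine to inosine in double-stranded RNA, was at 43.2, 42.05 and 41.1 CPM in MeVa2.1 and 55.5, 84.7 and 51.3 in its dOVA line, and at 84.6, 108 and 49.1 in MeVa2.2 and 157, 177 and 212 in its dOVA line. Each dOVA library was above the parental libraries of its origin (0.89, SE 0.19, adjusted p = 0.0358). Il1rl1 and Renbp held with any library left out, and Glipr1 lost the call without MeVa2.2.dOVA replicate 2 (adjusted p = 0.0529). Dlgap2, Setbp1, Pard6g, Cntnap4, Gtse1 and Adar lost it for 7, 6, 8, 9, 9 and 8 libraries, with an adjusted p of at most 0.108. Setbp1, Pard6g and Cntnap4 lost the call in the additive model (log2 fold change 1.48, 1.23 and 1.32; adjusted p = 0.0804, 0.0537 and 0.177).

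Genes of ribosomal RNA synthesis and processing formed a list made after values had been seen, so its counts support nothing. Polr1a, the largest subunit of RNA polymerase I (chromosome 6, 71909053 to 71984935, plus strand, GRCm38), was at 86.9, 88.1 and 93.6 CPM in MeVa2.1 and 127, 234 and 134 in its dOVA line, and at 138, 185 and 121 in MeVa2.2 and 315, 289.6 and 229 in its dOVA line. The groups were separate in each origin and the change was nearly the same in both (0.89, SE 0.18, adjusted p = 0.0230; 0.88 in the MeVa2.1 origin and 0.905 in the MeVa2.2 origin). Of 43 genes tested, 5 were called higher and 17 were higher in all 6 pairs, beside 0.486% and 9.10% of all tested genes. A positive average change was seen for 42 (median 0.47). The others called were the nucleolar factors Nol11 (0.77, SE 0.15, adjusted p = 0.0219), Dnttip2 (0.81, SE 0.18, adjusted p = 0.0364), Rrp15 (0.59, SE 0.13, adjusted p = 0.0388) and Rbm28 (0.57, SE 0.13, adjusted p = 0.0392). Polr1a, Nol11, Dnttip2, Rrp15 and Rbm28 lost the call for 6, 5, 9, 10 and 9 of the 12 libraries left out in turn (adjusted p up to 0.105). Rrp15 lost the call in the additive model (log2 fold change 0.59; adjusted p = 0.0605).

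Several programmes had no member that passed edgeR's test. None of 18 p53 targets and cell cycle inhibitors was called, although 9 were higher in all 6 pairs, against 9.10% of tested genes, with a median of 0.73. At an unadjusted p under 0.05 edgeR had 10 of them higher and 1 lower, and DESeq2 called 3 higher and 1 lower. Mdm2, the p53 target that degrades p53, was at 243, 465 and 249 CPM in MeVa2.1 and 313, 1620.3 and 369.6 in its dOVA line, and at 273, 478 and 181 in MeVa2.2 and 1162, 1612 and 273 in its dOVA line. MeVa2.1.dOVA replicate 2 and replicates 1 and 2 of MeVa2.2.dOVA were high, and the remaining dOVA libraries lay closer to their partners (1.49, SE 0.51, adjusted p = 0.141). Trp53inp1, a p53-induced gene, was at 57.6, 149 and 46.6 CPM in MeVa2.1 and 57.7, 418 and 58.4 in its dOVA line, and at 55.8, 157 and 27.9 in MeVa2.2 and 348, 465 and 109.7 in its dOVA line. The same 3 dOVA libraries stood above the rest (1.51, SE 0.62, adjusted p = 0.211). Interferon-stimulated genes went opposite ways in the 2 origins for 17 members, and had a positive average for all 32 tested and a median of 1.18 (1.77 without MeVa2.2 replicate 1). The MeVa2.2 origin had a median of 2.23 and the MeVa2.1 origin of -0.04. Of these, 4 were higher in all 6 pairs, against 9.10% of tested genes, and none was called, with 13 at an unadjusted p under 0.05 in edgeR and 7 called by DESeq2. Isg15, a ubiquitin-like modifier, was at 12.5, 8.04 and 5.08 CPM in MeVa2.1 and 24.2, 10.9 and 8.88 in its dOVA line, and at 71.8, 21.8 and 5.93 in MeVa2.2 and 88.3, 64.2 and 261 in its dOVA line. Its MeVa2.2 parental libraries ran from 5.93 to 71.8 CPM, and MeVa2.2.dOVA replicate 3 was the highest (1.42, SE 0.56, adjusted p = 0.195). Of 20 MHC class I presentation genes none was called either (median -0.39 in the MeVa2.1 origin and 1.19 in the MeVa2.2 origin), with 3 higher and 2 lower at an unadjusted p under 0.05 and 1 called lower by DESeq2. Near-identical copies make the counts of H2 genes uncertain.

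TGF-beta and BMP signalling genes had 7 of 21 lower in all 6 pairs, against 9.86% of tested genes, and none called by edgeR (median -0.52; 12 lower and 1 higher at an unadjusted p under 0.05; 3 called lower by DESeq2). Among 23 cholesterol genes none was called by edgeR, 1 was lower at an unadjusted p under 0.05 and DESeq2 called 1 lower (median -0.300). Of 26 DNA replication and mitosis genes, none was called by edgeR or DESeq2, none had an unadjusted p under 0.05 in edgeR and none moved the same way in all 6 pairs (median -0.27). For 22 integrated stress response genes edgeR and DESeq2 called none, with 1 at an unadjusted p under 0.05 in edgeR (median 0.13). The 7 mitochondrially encoded mRNAs, a sign of RNA quality, were lower on average (median -0.27), with none called by edgeR or DESeq2, none at an unadjusted p under 0.05 in edgeR, and 3 lower in all 6 pairs. The lists that follow had 1 or 2 called members each, and over all tested genes 2.39% were called lower. MAPK output had 1 of 18 called lower, the ETS factor Etv5 (-0.69, SE 0.14, adjusted p = 0.0251; median -0.39). YAP and TEAD targets had 1 of 16, Nt5e (median 0.16). Hypoxia and glycolysis had 2 of 25, the lactate exporter Slc16a3 (-3.09, SE 0.72, adjusted p = 0.0435) and the prolyl hydroxylase Egln3 (-1.91, SE 0.38, adjusted p = 0.0242; median -0.37). Complement had 1 of 9, Serping1 (median -0.299). Of 8 melanocyte genes and 23 neural crest-like genes tested, Ednrb of the first and Rxrg and Egfr of the second were lower (medians -1.98 and -0.47). The first median moved to -0.98 once MeVa2.2 replicate 1 was left out, and to -0.42 for MeVa2.1 replicate 1. Among 14 contractile genes Fhl1 was called higher (0.96, SE 0.22, adjusted p = 0.0397) and Carmn lower (-1.405, SE 0.28, adjusted p = 0.0230), and neither was a member, since not all MeVa2.2 pairs moved that way. Etv5, Slc16a3, Egln3, Fhl1 and Carmn lost the call for 8, 11, 5, 10 and 6 of the 12 libraries left out in turn (adjusted p up to 0.124). Etv5, Slc16a3, Egln3, Fhl1 and Carmn lost the call in the additive model (log2 fold change -0.69, -2.67, -1.88, 0.96 and -1.53; adjusted p = 0.0559, 0.148, 0.0761, 0.205 and 0.241).

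**Figure D4:**
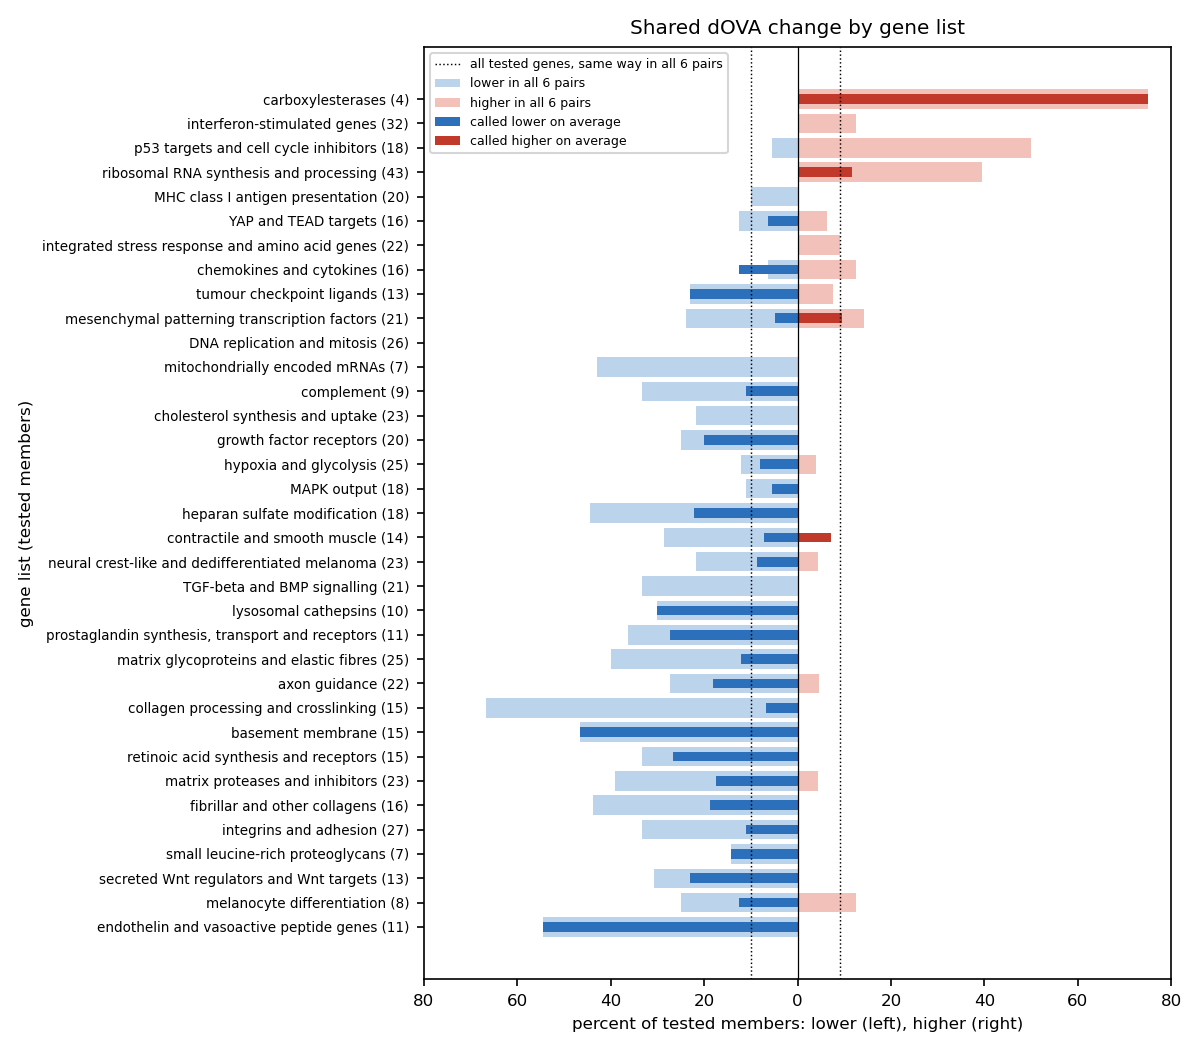
For each gene list (rows, tested members in brackets), the percent of tested members lower (left) or higher (right) in all 6 pairs (pale bars) and called on average (dark bars). Dotted lines mark 9.86% lower and 9.10% higher over all tested genes. The carboxylesterase, prostaglandin, retinoic acid, endothelin and ribosomal RNA lists were made after values were seen. All other lists were chosen with earlier results of these data known.

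Where the origins differ was tested on the difference of the 2 dOVA changes. Over all genes 12 were called (0.0858%), and 7 of them are among the 402. That count was 0 without MeVa2.1.dOVA replicate 3 or MeVa2.2 replicate 1 (1125 and 992 genes at an unadjusted p under 0.05) and at most 13 without any other library. A further gene, Hdx, was called in each origin but in opposite directions. The sign was the same in the 2 origins for 66 of the 68 called higher and 326 of the 334 called lower genes. For the 17 genes called in each origin in the same direction the smallest adjusted p of the difference was 0.401, which does not show that the origins act alike. For Nid1 the MeVa2.2 change minus the MeVa2.1 change was 0.27 with an SE of 0.35, and for Sulf1 it was 0.98 with an SE of 1.32.

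Level, length and position of the members were compared as a description, with no test. The median of mean log2 CPM was 5.79 for higher members, 3.82 for lower members and 4.61 for all tested genes. By level, 15.6% of genes with a mean log2 CPM of 6 to 8 were higher in all 6 pairs and 7.33% lower, while of genes at 0 to 2 the shares were 4.20% and 14.4%. The median summed exon length was 5215.5 bases for called higher and 5279.5 for called lower genes, beside 4179 for all. On the chromosomes, 12 of the 68 called higher genes (17.6%) lay on chromosome 6, which holds 4.82% of tested genes and 5.69% of the called lower ones. Chromosome 6 had 11.3% of its genes higher in all 6 pairs, and a median log2 fold change of 0.09 in the MeVa2.2 origin and -0.05 in the MeVa2.1 origin. Chromosomes 13, 14 and 16 had medians of -0.22, -0.15 and -0.17 in the MeVa2.2 origin and lay within 0.06 of 0 in the MeVa2.1 origin, with 5.24%, 5.92% and 4.60% of genes higher in all 6 pairs. Nid1 and Hecw1 lie on chromosome 13 and Stc1, Nid2 and Loxl2 on chromosome 14.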

How the data were processed

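RNA was extracted with an RNeasy Mini kit and made into stranded mRNA libraries, per the labels' protocols. The authors deposited 1 table per library of whole-number read counts per gene ID. STAR 2.6.0c, HTSeq 0.10.0, DESeq2 1.30.1 and GRCm38 are named in the submitters' processing notes. The strand setting and the treatment of reads that match several places are not given in the sources used here, so counts of near-identical or overlapping genes (Ces1, Pcdhg, H2, Carmn) are uncertain. The 5 tally rows that name no gene held 35.8% to 40% of each file's total and were left out.

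Of 55471 gene IDs, 55144 were paired with a symbol and 55230 with a position in GENCODE M21. Counts were tested with edgeR 4.0.16 (R 4.3.3) by its quasi-likelihood test, with filterByExpr (13985 genes kept), TMM scaling, 1 mean per line over all 12 libraries (8 residual degrees of freedom) and Benjamini-Hochberg adjustment at 0.05. Contrasts were each origin's dOVA minus parent, their mean, and their difference. Every adjusted p in the text is from this test unless DESeq2 (1.42.0) is named, and values given with an SE are log2 fold changes; the SE is the fold change over the root of F and restates the test. Counting intervals (95%) and floors of 3 counts cover counting error only. Figures add 0.5 or 0.05 CPM.

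On simulated counts for the average change with 13985 genes, 200 of them changed, 129 were called, 3 falsely. Recovery was 44% at 2-fold and 82% at 4-fold. The counts were drawn independently for each library, with no deviation shared by libraries of the same number. The false calls therefore do not measure the error rate in the real libraries.

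Named genes were, per direction, the 15 with the largest average change among genes called, moving the same way in all 6 pairs, with a mean log2 CPM no lower than 1 and a proper symbol, the genes called in both origins, and up to 6 members of each list by p. The rule also names list members that go opposite ways in the 2 origins; these, and list members the results do not turn on, are given as counts. Cd274, Col1a1, Ces1a and Isg15 are named as examples of their lists. Members, 30 pathway lists and 7 cell-type lists were chosen with earlier results of these data known, and 5 lists were added after values were seen. Alternatives covered the replicate block, scaling, filter, tool, model and left-out libraries.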

Additional observations from a re-analysis of the deposited data

Results flagged for a closer look

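Of the 402 genes called on average, 7 had a dOVA change that differed between the origins by edgeR's quasi-likelihood test of that difference, given here as the MeVa2.2 log2 fold change minus the MeVa2.1 one. Lrfn3, a neuronal adhesion gene, was at 2.13, 1.53 and 1.92 CPM in MeVa2.1 and 0.673, 1.12 and 0.974 in its dOVA line, and at 0.406, 0.594 and 0.418 in MeVa2.2 and 4.38, 5.82 and 3.73 in its dOVA line. It was higher in MeVa2.2.dOVA and lower in MeVa2.1.dOVA than in the parents, without overlap (difference 4.28, SE 0.503, adjusted p = 0.0121). Rnf130, a ubiquitin ligase gene, was at 21.4, 33.7 and 19.5 CPM in MeVa2.1 and 29.7, 43.7 and 28.4 in its dOVA line, and at 19.5, 21.8 and 14.9 in MeVa2.2 and 3.53, 2.22 and 1.17 in its dOVA line. The MeVa2.2 origin fell without overlap and the MeVa2.1 pairs were all slightly higher (difference -3.49, SE 0.53, adjusted p = 0.0411). Sirpa, the CD47 receptor, was at 76.8, 119 and 95.2 CPM in MeVa2.1 and 95.8, 85.01 and 85.5 in its dOVA line, and at 11.8, 12.5 and 12.4 in MeVa2.2 and 1.42, 0.997 and 0.529 in its dOVA line. Its fall was in the MeVa2.2 origin, and the MeVa2.1 libraries overlapped (difference -3.55, SE 0.400, adjusted p = 0.0119).

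Rap1gap2 (-3.11, SE 0.43, adjusted p = 0.0357) and B3galnt1 (-6.296, SE 0.91, adjusted p = 0.0390) had the same form, with MeVa2.1 changes of -0.11 and -0.35 and MeVa2.2 changes of -3.22 and -6.64. B3galnt1 had 2 against 214 counts in MeVa2.2.dOVA and MeVa2.2, a ratio of parent to dOVA of 126 (95% counting interval 34.4 to 1045). Carmn (3.72, SE 0.56, adjusted p = 0.0390) and Pcdhgb2 (2.49, SE 0.35, adjusted p = 0.0357) had the larger fall in the MeVa2.1 origin, with changes of -3.27 and -3.13 against 0.46 and -0.63. Pcdhgb2 shares exons with the other protocadherin gamma genes, and its counts are uncertain.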

How the results depend on the processing

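Other settings moved the number of called genes and the share of them that were lower. Over the 45 genes named by rule and their alternatives, 818 of 941 values kept direction and call, the rest kept direction only and 0 reversed. Over the wider set of 104 called genes that are named or lead a list, 1666 of 2167 values kept the call, 0 reversed, and 67 of the 104 genes lost the call under an alternative (63 when 1 library was left out). Both sets held only called genes. The 45 were chosen for large changes or calls in both origins, and all moved the same way in all 6 pairs. A reversal was therefore unlikely from the start, and its absence supports nothing. The main counts were 402 genes (68 higher, 334 lower), 17 called in both origins and 12 differing between origins. With the replicate block they were 1667 (591 and 1076), 108 and 118, and all 402 were among the 1667. With a replicate block of 6 pairs the average gave 1087 (369 and 718), of which 311 were among the 402; of the 104 genes 15 lost the call there (Rbpms, Tox2, Sema3b, Sfrp1, Col15a1, Carmn, Cntnap4, Ctsc, Cxcl12, Egln3, Fhl1, Itga2, Npas3, Setbp1 and Slc16a3), with log2 fold changes of -2.19 for Rbpms, -3.29 for Tox2, -1.59 for Sema3b, -1.73 for Sfrp1 and -2.86 for Col15a1 and adjusted p = 0.0771, 0.0568, 0.0949, 0.249 and 0.214. The additive model gave 278 (55 and 223), and 32 of the 104 lost the call. The numbers share only a label: deviations of same-numbered libraries correlated at 0.488 to 0.534 in the MeVa2.1 origin but at 0.082, 0.64 and 0.521 in the MeVa2.2 origin, and 10 of 12 libraries correlated best with their own number, a hint from the data and not the design. DESeq2 gave 1170 (331 and 839), 109 and 272. No low-count filter gave 930 (176 and 754, over 28155 genes), 86 and 161, and a mean log2 CPM of at least 1 gave 279 (50 and 229, over 11490 genes), 10 called in both origins and 6 of the 104 calls lost (Aldh1a3, Col5a3, Fbln2, Nt5e, Slc16a3 and Tbx15). The share of calls that were lower was 83.1% with 1 mean per line, 64.5% with the block, 66.1% with the block of 6 and 71.7% with DESeq2; RLE and upper-quartile scaling gave 83.2% and 85.1%. The cause of these differences was not tested.

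Leaving out 1 library gave 124 to 800 genes (14 to 208 higher, 110 to 599 lower), 0 to 25 called in both origins and 0 to 13 differing. The total was under 402 by more than 1.5 times for replicate 1 (161) and 2 (214) of MeVa2.1, 2 (162) and 3 (158) of its dOVA line, 1 (201) and 3 (229) of MeVa2.2, and 1 (211) and 2 (124) of its dOVA line. It was over it for replicate 2 of MeVa2.2 (800) and 3 of its dOVA line (660). Without MeVa2.2 replicate 2 and MeVa2.1.dOVA replicate 2 together, 0 genes were called in both origins (389 at an unadjusted p under 0.05 in each). Genes moving the same way in all remaining pairs were 1405 to 1847 higher and 1529 to 1790 lower without 1 library. With no pairing, counting libraries that do not overlap, they were 147 and 315, and at 1.5-fold or more in every pair 30 and 302. Depth limits genes with few counts in a line, for which ratios carry wide counting intervals.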
